A study of Mus musculus with 6 samples.

Results

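The 10 genes described here are 8 cytosolic heat shock genes (Hspa1a, Hspa1b, Hspa8, Hsph1, Hsp90aa1, Dnajb1, Hspb1 and Bag3) and 2 metallothionein genes (Mt1 and Mt2), chosen by name from the 55357 genes in the liver counts. The choice was made with earlier results of these data known. Liver RNA of male, wild-type (WT) C57BL6/J mice aged 8 to 9 weeks was sequenced in 3 vehicle and 3 esculetin libraries, each made from the livers of 2 mice, so that each group covered 6 mice. Vehicle mice received 2.5% Tween-80 and the other mice received esculetin, a coumarin derivative, by oral gavage for 7 days. Both groups ate a control diet with 10% of kcal from fat for 4 days and then a high-fat diet (HFD) with 60% of kcal from fat for 3 days. For the esculetin libraries, titles and protocol state 180 mg/kg/d whereas their treatment entry states 90 mg/kg/d, so no dose is attached to the group here, and all 6 libraries are from HFD-fed mice.

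Heat shock proteins are chaperones that hold, refold or hand over unfolded proteins. The genes of the stress-inducible ones are switched on by heat shock factor 1 (HSF1), which binds the heat shock element in their promoters when unfolded proteins build up, as in heat, oxidative stress or fever. Metallothioneins are small cysteine-rich proteins that bind zinc and copper, and in the liver their genes respond to metals through the factor MTF1 and to glucocorticoids and inflammatory cytokines. Both families are widely read as stress markers of liver tissue, and the question put to the data was how their RNA levels compared between livers of esculetin-treated and vehicle-treated mice on the same diet.

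The results turn on a near-identical gene pair (Hspa1a and Hspa1b) and on Hspb1, the 1 heat shock gene called by the unadjusted rule given below. They also turn on a metallothionein pair of very different read counts (Mt1 and Mt2). The upstream sequences of these 5 genes are therefore printed. They are the 250 bases before the RefSeq transcription start in GRCm38.p6, written 5′ to 3′ on the gene's strand. Capitals mark the heat shock element core (GAANNTTC or TTCNNGAA, the same set of matches on both strands) in the first 3 genes and the metal response element core (TGCACNC or TGCGCNC, either strand) in the last 2. The intervals are chr17:34972157-34972406 (minus strand) for Hspa1a, chr17:34959239-34959488 (minus strand) for Hspa1b, chr5:135887669-135887918 (plus strand) for Hspb1, chr8:94178839-94179088 (plus strand) for Mt1 and chr8:94172368-94172617 (plus strand) for Mt2.
Hspa1a: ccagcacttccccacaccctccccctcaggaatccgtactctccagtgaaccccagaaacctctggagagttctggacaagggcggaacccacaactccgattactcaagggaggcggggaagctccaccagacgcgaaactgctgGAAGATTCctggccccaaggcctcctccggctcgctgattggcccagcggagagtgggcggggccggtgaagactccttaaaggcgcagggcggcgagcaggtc
Hspa1b: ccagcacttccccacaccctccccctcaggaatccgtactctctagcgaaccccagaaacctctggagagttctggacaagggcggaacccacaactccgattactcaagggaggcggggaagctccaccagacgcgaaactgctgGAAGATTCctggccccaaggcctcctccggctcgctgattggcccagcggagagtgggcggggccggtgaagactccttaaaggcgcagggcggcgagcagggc
Hspb1: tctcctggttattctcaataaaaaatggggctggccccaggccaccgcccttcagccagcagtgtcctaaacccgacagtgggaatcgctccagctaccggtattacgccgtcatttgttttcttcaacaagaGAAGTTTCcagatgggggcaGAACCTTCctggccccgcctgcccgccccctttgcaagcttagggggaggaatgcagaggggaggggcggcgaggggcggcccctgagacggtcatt
Mt1: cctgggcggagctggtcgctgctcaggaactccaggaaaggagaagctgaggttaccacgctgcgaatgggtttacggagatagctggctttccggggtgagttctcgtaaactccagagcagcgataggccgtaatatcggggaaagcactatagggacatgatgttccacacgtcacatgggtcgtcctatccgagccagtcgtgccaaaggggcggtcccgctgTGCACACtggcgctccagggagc
Mt2: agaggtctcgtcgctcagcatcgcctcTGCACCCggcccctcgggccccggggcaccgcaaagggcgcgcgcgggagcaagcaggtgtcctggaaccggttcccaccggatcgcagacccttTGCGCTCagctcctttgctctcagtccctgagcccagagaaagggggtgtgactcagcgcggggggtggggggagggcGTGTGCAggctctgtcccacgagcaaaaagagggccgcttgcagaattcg
The Hspa1a and Hspa1b sequences were identical at 247 of 250 positions (98.8%), while those of Mt1 and Mt2 were identical at 58.4% of positions. RefSeq promoters were found for 8 of the 10 genes, all except Hspa8 and Hsp90aa1. The heat shock element core was present in 4 of the 6 heat shock genes with a promoter (Hspa1a, Hspa1b, Hsph1 and Hspb1, the last with 2 matches), against 12.8% of 32851 promoters, and Dnajb1 and Bag3 had no match in this window. Hspa1a and Hspa1b hold the same match, and the genes were chosen as heat shock genes, so this count is no test. A longer core, GAANNTTC followed by NNGAA or TTCNNGAA followed by NNTTC, was in none of the 6 and in 0.466% of all promoters. Within these 250 bases the metal response element core was matched once in Mt1 and 3 times in Mt2, and in none of the 6 heat shock genes. Of all promoters, 21.4% had at least 1 match and 0.77% at least 3. Bases past the RefSeq start were not searched, so the counts depend on the start used and do not give all sites of a gene.

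All 10 genes are protein-coding, and positions are in GRCm39 with GENCODE transcripts. The single-exon neighbours Hspa1b (ENSMUSG00000090877, chr17:35175412-35178214) and Hspa1a (ENSMUSG00000091971, chr17:35188166-35191132) lie on the minus strand of chromosome 17, and Mt2 (ENSMUSG00000031762, chr8:94898819-94900207) and Mt1 (ENSMUSG00000031765, chr8:94905710-94906955) lie in tandem on the plus strand of chromosome 8. Hspa8 (ENSMUSG00000015656) is at chr9:40711630-40731039 (plus strand, 9 exons in its canonical transcript), Hsph1 (ENSMUSG00000029657) at chr5:149537636-149560156 (minus strand, 18 exons) and Hsp90aa1 (ENSMUSG00000021270) at chr12:110656842-110669166 (minus strand, 11 exons). Dnajb1 (ENSMUSG00000005483) is at chr8:84334811-84339820 (plus strand, 3 exons), Hspb1 (ENSMUSG00000004951) at chr5:135916760-135918417 (plus strand, 3 exons) and Bag3 (ENSMUSG00000030847) at chr7:128125283-128148705 (plus strand, 4 exons).

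The libraries held 27957713 to 34920922 counted reads, and each of the 3 esculetin libraries was deeper than each of the vehicle libraries. Levels are CPM, in which reads are scaled to the size of the library, after edgeR's TMM scaling, on which 3 reads correspond to 0.0865 to 0.109 CPM. Of all genes, 14433 had enough reads to be tested with edgeR's quasi-likelihood test, and a gene was called when its unadjusted p-value was under 0.05 and its fold change over 1.5. This rule called 198 genes higher (1.37%) and 254 lower (1.76%) with esculetin, 452 in all (3.13%), and 6 genes (0.0416%) had a Benjamini-Hochberg adjusted p-value under 0.05. The summed level of 10 hepatocyte markers, all detected, was 96093 to 100437 CPM in vehicle and 93860 to 100487 CPM in esculetin libraries.

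Of the 9 genes with enough reads for this test, Hspb1 and Mt1 were called higher with esculetin and none was called lower. Of all genes, 1.37% were called higher and 1.76% lower. Hspb1 was 1.53-fold and Mt1 4.01-fold higher, and the Mt1 mean rested largely on 1 library. An unadjusted p-value under 0.05 was reached by 4 of the 9, all with higher means (Hspa8, Hspb1, Bag3 and Mt1), against 6.53% of all genes in that direction, and no adjusted p-value was under 0.242. All 9 log2 fold changes were above 0, as were 48.5% of those of all genes, and their median was 0.28 where the median of all genes was -0.008. Each esculetin library was above each vehicle library for 3 of the 9 (Hspa8, Hspb1 and Mt1) and below for none, where 9.2% of all genes lay above and 8.24% below in this way. Because the genes were chosen with earlier results known, these counts beside the shares of all genes are no test. In bulk liver, a lower level of a gene in each cell and fewer cells that use it cannot be told apart.

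**Figure D1:**
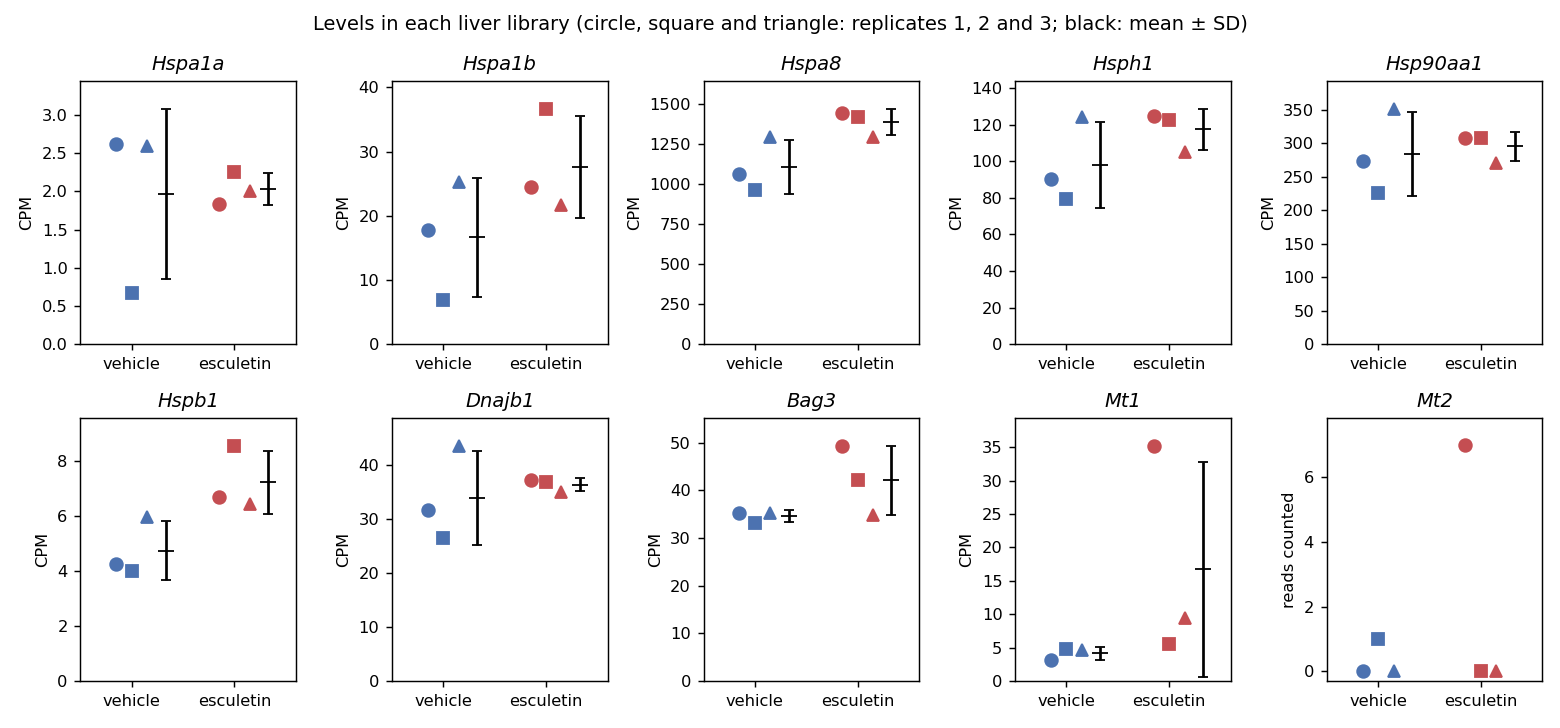
Level of each gene in the 6 liver libraries, in CPM (reads counted for Mt2), with vehicle in blue and esculetin in red, replicates 1 to 3 as circle, square and triangle, and the mean ± SD in black. The groups did not overlap for Hspa8, Hspb1 and Mt1, and esculetin replicate 1 stood far above the other libraries for Mt1 at 35.2 CPM.

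The inducible HSP70 genes Hspa1a and Hspa1b encode almost the same protein, the chaperone that is nearly silent in unstressed tissue and abundant after heat. Hspa1b was at 17.8, 6.87 and 25.2 CPM in the vehicle and 24.5, 36.6 and 21.6 CPM in the esculetin libraries. The groups overlapped, since vehicle replicate 3 was above esculetin replicates 1 and 3, and vehicle replicate 2 was lowest of all. The log2 fold change was 0.74 (SE 0.37, 95% interval -0.10 to 1.57), with an unadjusted p of 0.0773 and an adjusted p of 0.480 in edgeR's test. Hspa1b was called when vehicle replicate 3 was left out (1.17, unadjusted p of 0.0105 in edgeR's test), and its log2 fold change was 0.36 without vehicle replicate 2.

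Hspa1a was lower, at 2.62, 0.675 and 2.59 CPM with vehicle and 1.83, 2.25 and 2.0 CPM with esculetin. Its log2 fold change was 0.06 (SE 0.42, 95% interval -0.89 to 1.0) with an unadjusted p of 0.892 in edgeR's test, and became -0.36 without vehicle replicate 2. Hspa1b took 87.2% to 94.2% of the reads of the pair. Of 100-base windows of the transcripts, 1350 of 2704 in Hspa1b (49.9%) also occur in Hspa1a, so how the reads were divided between the genes is uncertain. Of the Hspa1a transcript 564 bases (19%) lie in exons of Gm20481 on the opposite strand, which was counted at 0 reads in all 6 libraries, and Hspa1b has no such overlap. Summed, the pair was at 20.5, 7.55 and 27.8 CPM with vehicle and 26.3, 38.9 and 23.6 CPM with esculetin, again with overlap.

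Hspa8 encodes HSC70, the constitutive cytosolic HSP70 that serves protein folding, clathrin uncoating and chaperone-mediated autophagy. It was at 1068, 963 and 1295 CPM in the vehicle and 1448, 1423 and 1297 CPM in the esculetin libraries. Each esculetin library was above each vehicle library, but the nearest values, 1295 and 1297 CPM, all but touched. The mean went from 1108 ± 170 to 1389 ± 80.9 CPM (SD, n = 3 each), a log2 fold change of 0.33 (SE 0.11, 95% interval 0.08 to 0.58). The unadjusted p was 0.0158 and the adjusted p 0.301 in edgeR's test, and the fold change of 1.25 was under the fold threshold. Without vehicle replicate 2 the log2 fold change was 0.24 and the unadjusted p 0.0671 in edgeR's test.

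Hspa8 has many processed pseudogenes, and 62.8% of its 100-base windows also occur in another annotated gene, mostly in Gm15459, to which 686 to 1042 reads per library were counted. The 5 genes whose profile over the 6 libraries was most like that of Hspa8, by root mean square difference of centred log2 CPM among 12169 genes, were Dctpp1 (0.0433), Gm9108 (0.0494), Gm15459 (0.0509), Usp2 (0.0595) and Orc5 (0.0651). Gm15459 shares Hspa8 sequence, and its level was 22.2 to 29.6 CPM with vehicle and 28.8 to 32.4 CPM with esculetin.

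Hsph1 (HSP110, which exchanges nucleotide on HSP70) was at 90.1, 79.4 and 124 CPM with vehicle and 125, 122 and 105 CPM with esculetin. Its log2 fold change of 0.26 (SE 0.15, 95% interval -0.07 to 0.60) had an unadjusted p of 0.111 in edgeR's test, and the groups overlapped because vehicle replicate 3 was as high as esculetin replicates 1 and 2. Without vehicle replicate 3 it was 0.47, with an unadjusted p of 0.00175 in edgeR's test, still under the fold threshold, and without vehicle replicate 2 it was 0.14 (unadjusted p of 0.374 in edgeR's test).

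Hsp90aa1 encodes the inducible form of cytosolic HSP90, which matures kinases and steroid receptors. It was at 274, 226 and 351 CPM with vehicle and 307, 307 and 271 CPM with esculetin, and the vehicle libraries spanned the whole esculetin range. The log2 fold change was 0.06 (SE 0.14, 95% interval -0.26 to 0.37) with an unadjusted p of 0.688 in edgeR's test. Of its 100-base windows 44.1% also occur in another gene, mostly in the pseudogene Gm12346, to which 88 to 155 reads per library were counted.

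Dnajb1 (HSP40, the J-protein that delivers unfolded proteins to HSP70) was at 31.7, 26.5 and 43.5 CPM with vehicle and 37.3, 36.9 and 35 CPM with esculetin. The 3 esculetin libraries lay inside the vehicle range, and the log2 fold change was 0.10 (SE 0.15, 95% interval -0.24 to 0.45, unadjusted p of 0.519 in edgeR's test). Without vehicle replicate 3 it was 0.33 (unadjusted p of 0.0136 in edgeR's test), and without vehicle replicate 2 it was -0.044.

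Bag3, an HSP70 cochaperone that directs damaged proteins to autophagy, was at 35.2, 33.1 and 35.3 CPM with vehicle and 49.2, 42.2 and 34.8 CPM with esculetin. Esculetin replicates 1 and 2 were above the 3 vehicle libraries and esculetin replicate 3 was among them. The log2 fold change was 0.28 (SE 0.12, 95% interval 0.02 to 0.55), with an unadjusted p of 0.0386 and an adjusted p of 0.392 in edgeR's test, under the fold threshold. With 1 library left out, its log2 fold change ran from 0.16 (without esculetin replicate 1) to 0.41 (without esculetin replicate 3) and its unadjusted p-values from 0.00199 to 0.175. Of its transcript 18.6% lies in exons of another annotated gene, 4921520J07Rik, and 15.4% of its 100-base windows also occur there.

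Hspb1 encodes HSP25 (HSP27 in humans), a small heat shock protein that holds unfolding proteins and guards actin filaments, and was expressed at a low level. It was at 4.26, 3.99 and 5.94 CPM with vehicle and 6.68, 8.53 and 6.42 CPM with esculetin, without overlap. The mean rose from 4.73 ± 1.06 to 7.21 ± 1.15 CPM (SD, n = 3 each), a log2 fold change of 0.61 (SE 0.19, 95% interval 0.18 to 1.05), with an unadjusted p of 0.0108 and an adjusted p of 0.265 in edgeR's test. The call was close to the fold threshold and was lost without vehicle replicate 1 (0.54), vehicle replicate 2 (0.50) or esculetin replicate 2 (0.47). Of its 100-base windows 55.4% also occur in the pseudogene Hsp25-ps1, which was listed at 0 in all 6 libraries.

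**Figure D2:**
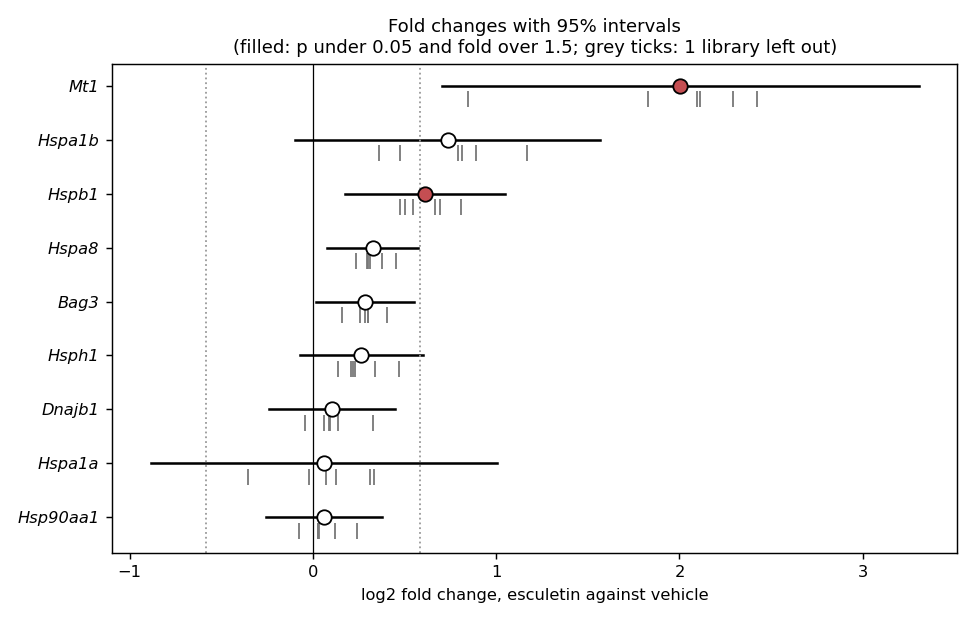
Log2 fold change of the 9 tested genes, esculetin against vehicle, with 95% intervals (lines), the fold threshold of 1.5 (dotted lines) and the values with each library left out (grey ticks); filled points were called. Hspb1 at 0.61 and Mt1 at 2.01 were past the threshold, and the Mt1 values ran from 0.85 to 2.42 with 1 library left out.

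Exact two-sided permutation tests of CPM gave p = 0.1 for Hspa8, Hspb1 and Mt1, the smallest that 3 against 3 libraries allow, and 0.3 or more for the other 6 genes tested.

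The 8 heat shock genes shared an order of libraries. Vehicle replicate 2 was the lowest of all 6 libraries for 8 of 8, where 16.1% of all tested genes had their lowest value there. It was also the lowest for 19 of 54 other chaperone genes tested. Vehicle replicate 3 was the highest of its group for 7 of 8 (34.6% of all genes) and esculetin replicate 3 the lowest of its group for 7 of 8 (34.6% of all genes). The summed level of the 8 genes, most of it from Hspa8, was 1523, 1339 and 1883 CPM with vehicle and 2000, 1979 and 1772 CPM with esculetin, so that vehicle replicate 3 was above esculetin replicate 3. This order was seen in the values themselves, the genes are not independent of each other, and so no test is attached to it.

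**Figure D3:**
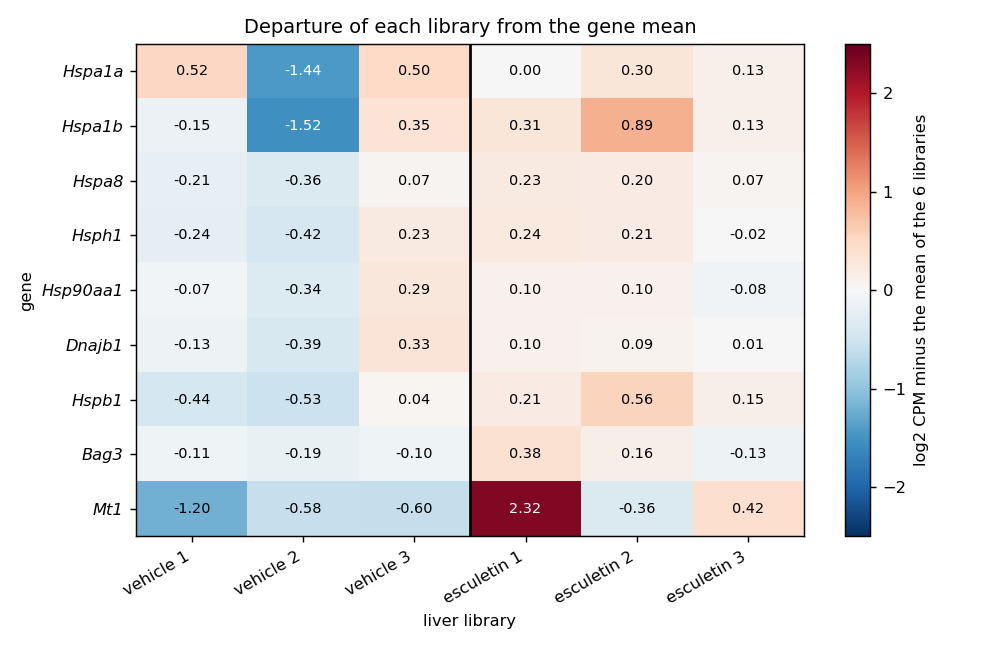
Departure of each liver library (columns) from the gene's mean over the 6 libraries (rows, log2 CPM), red above and blue below the mean. Vehicle 2 is below the mean for all heat shock genes, most for Hspa1b at -1.52 and Hspa1a at -1.44, and Mt1 stands out in esculetin 1 at 2.32.

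Among vehicle libraries the SD of log2 CPM, the spread within a group, was 1.07 for Hspa1a and 0.966 for Hspa1b, above 99.6% and 99.4% of 12178 genes with a mean of at least 1 CPM, whose median SD was 0.14. Among esculetin libraries these SDs were 0.143 and 0.396. The SD was larger among vehicle than among esculetin libraries for 7 of the 8 genes, as for Dnajb1 with 0.363 and 0.0495, and smaller for Bag3 with 0.0513 and 0.251. With 3 libraries each, the difference in spread between the groups was not tested. The summed level of 10 Kupffer cell and macrophage markers, all detected, was 385 to 513 CPM with vehicle and 404 to 417 CPM with esculetin, and was also highest in vehicle replicate 3 (8 of the 10 markers), whose part in the heat shock values was not tested.

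Per kilobase of canonical transcript, Hspa8 was the highest of the 10 genes in vehicle livers at 463 ± 71.0 CPM per kb (SD, n = 3), followed by Hsp90aa1 at 80.3 ± 17.8. Hsph1 at 15.8 ± 3.78 and Bag3 at 13.2 ± 0.465 CPM per kb were next and lay within their spread of each other. Dnajb1 was at 9.59 ± 2.47 CPM per kb and overlapped with Hspa1b (5.94 ± 3.29) but not with Mt1 (5.45 ± 1.24) or Hspb1 (5.16 ± 1.16 CPM per kb). Hspa1b, Mt1 and Hspb1 lay within their spread of each other, and Hspa1a was at 0.661 ± 0.376 CPM per kb. The constitutive gene Hspa8 thus had many times the level of the inducible Hspa1b in both groups, with 580 ± 33.8 against 9.84 ± 2.84 CPM per kb with esculetin.

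Mt1, the main metallothionein gene of the liver together with Mt2, was at 3.06, 4.73 and 4.67 CPM with vehicle and 35.2, 5.51 and 9.44 CPM with esculetin. Each esculetin library was above each vehicle library, with replicate 2 closest to them and replicate 1 by far the highest. The mean rose from 4.15 ± 0.943 to 16.7 ± 16.1 CPM (SD, n = 3 each), a log2 fold change of 2.01 (SE 0.58, 95% interval 0.70 to 3.31), with an unadjusted p of 0.00655 and an adjusted p of 0.242 in edgeR's test. Without esculetin replicate 1 the log2 fold change was 0.85 and still passed the thresholds (unadjusted p of 0.0123 in edgeR's test), while limma-voom gave 1.55 with an unadjusted p of 0.0526. Within the esculetin group the SD of log2 CPM was 1.37, above 99.8% of 12178 genes, against 0.35 within the vehicle group.

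Mt2 was all but absent, with 0, 1 and 0 reads in the vehicle and 7, 0 and 0 in the esculetin libraries, too few to pass the count filter of the main test. The 7 reads came from esculetin replicate 1, the library with 1133 Mt1 reads. In the annotation 581 of the 748 bases of the Mt2 transcript (77.7%) lie in exons of the antisense long non-coding RNA Gm45774, which was counted at 2, 4 and 2 reads with vehicle and 16, 0 and 0 with esculetin. Whether the counting used strand is not given in the sources used here, reads of overlapping genes may then be left uncounted, and the part of this overlap in the low Mt2 count was not tested. No annotated exon of another gene shared a 100-base window with Mt1. The brain and epithelial metallothioneins Mt3 and Mt4 were at 0 reads in all 6 libraries.

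The 5 genes whose profile was most like that of Mt1 were Serpine2 (root mean square difference 0.429), Orm3 (0.514), Atp6v0d2 (0.573), Lcn2 (0.592) and S100a9 (0.641), and each was highest in esculetin replicate 1. Serpine2, a serine protease inhibitor, was at 3.54, 4.54 and 5.73 CPM with vehicle and 39.1, 5.02 and 4.72 CPM with esculetin. Lcn2, an iron-siderophore binding acute phase protein, was at 1.57, 3.41 and 8.57 CPM with vehicle and 20.3, 5.30 and 7.73 CPM with esculetin, and the groups overlapped. These differences of profile were larger than those of the 5 genes most like Hspa8.

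**Figure D4:**
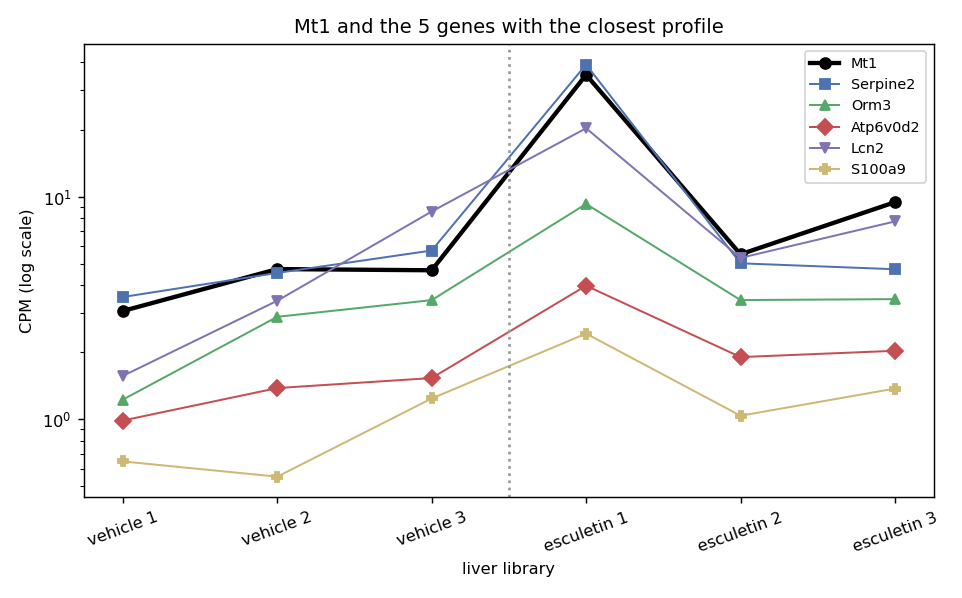
Level of Mt1 (black) and of the 5 genes with the closest profile in each liver library, in CPM on a log axis, 1 point per library, with lines that only join the points of a gene, since libraries have no order. All 6 genes are highest in esculetin 1, where Mt1 was at 35.2 and Serpine2 at 39.1 CPM.

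Of 22 acute phase genes and their regulators, the genes of the liver's response to inflammation, 15 had their highest value in esculetin replicate 1, where 19.9% of all tested genes had theirs. Their summed level was 19774, 24253 and 27725 CPM with vehicle and 30568, 20094 and 25159 CPM with esculetin. None of the 22 was called by edgeR, against 3.13% of all genes, and 1 was by limma-voom and 2 were by edgeR without a filter. With 1 library left out, edgeR called 1 without vehicle replicate 1, 3 without vehicle replicate 3, 2 without esculetin replicate 2 and 3 without esculetin replicate 3. Log2 fold changes were above 0 for 17 (48.5% of all genes) with a median of 0.16, and an unadjusted p under 0.05 in edgeR's test was reached by 3 of the 22, against 11.9% of all genes, namely Il6ra at 0.40, Crp at 0.22 and Socs3 at -0.55. Of 6 neutrophil markers, Ly6g and Mpo were at 0 in all libraries. The summed level of the list was 3.03 to 4.38 CPM with vehicle and 2.80 to 5.88 CPM with esculetin, highest in esculetin replicate 1. Of the 3 tested, 2 were highest there (S100a8 and S100a9), and S100a9 was called higher (0.99, unadjusted p of 0.0444 in edgeR's test). The other, Csf3r, was lower in each esculetin library than in each vehicle library. The summed level of 10 stellate cell markers, all detected, was 365 to 441 CPM with vehicle and 326 to 431 CPM with esculetin, lowest in esculetin replicate 1, which was below the other libraries for 7 of the 10. The part of acute phase genes, neutrophils or stellate cells in the Mt1 value was not tested.

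Metallothionein genes are also glucocorticoid targets, and 12 glucocorticoid-responsive genes were tested. Fkbp5, a cochaperone of the glucocorticoid receptor, rose from 29.6, 25.6 and 41.0 CPM to 76.6, 54.8 and 80.9 CPM, a log2 fold change of 1.14 (SE 0.19, unadjusted p of 0.000122 and adjusted p of 0.114 in edgeR's test). Cdkn1a, a cell cycle inhibitor, rose by 0.75 on the log2 scale and Sgk1, a kinase of ion transport, fell by 0.77 on that scale (unadjusted p of 0.00991 and 0.00200 in edgeR's test). The list thus had 2 genes called higher and 1 lower of 12, against 1.37% and 1.76% of all genes, with a median of 0.037. At an unadjusted p under 0.05 alone there were 2 higher and 3 lower, against 6.53% and 5.32% of all genes, the further lower ones being the phosphatase Dusp1 (-0.56, unadjusted p of 0.000219 in edgeR's test, groups without overlap) and the glucocorticoid receptor gene Nr3c1 (-0.17, unadjusted p of 0.0432 in edgeR's test). Within the esculetin group both Fkbp5 and Mt1 were lowest in replicate 2, while Fkbp5 was highest in replicate 3 and Mt1 in replicate 1, and the part of glucocorticoids in the Mt1 value was not tested. Of 17 immediate early genes tested, Nr4a1 was called lower (log2 fold change -1.57, unadjusted p of 0.00549 in edgeR's test) with overlapping groups, and the median was 0.0056. This count of 1 became 2 with limma-voom, with total counts and without vehicle replicate 1.

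The other genes of metal handling gave no call in either direction among 28 tested of 31 listed, also with DESeq2 and limma-voom, where 3.13% of all genes were called by edgeR. The metal-responsive factor Mtf1 had a log2 fold change of -0.0021 (SE 0.15), and the zinc exporter Slc30a1, a known MTF1 target, one of -0.20 (SE 0.16, unadjusted p of 0.235 in edgeR's test). An unadjusted p under 0.05 was reached by 2 of the 28, against 11.9% of all genes. These were Slc30a5, which loads zinc into the secretory pathway (0.33, unadjusted p of 0.00419 in edgeR's test), and the copper chaperone Atox1 (0.19, unadjusted p of 0.0321 in edgeR's test). Log2 fold changes were above 0 for 12 and below 0 for 16 of the 28 (48.5% of all genes were above 0), with a median of -0.06.

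The other chaperone genes, 54 tested of 56 listed, gave 0 called higher and 1 called lower, against 1.37% and 1.76% of all genes, and DESeq2 and limma-voom each also called 1. The list does not hold Fkbp5, which was called higher and stands among the glucocorticoid-responsive genes. The gene called by all 3 was Hspa1l, an HSP70 gene beside Hspa1a that is used mainly in the testis, at 0.443, 0.430 and 0.656 CPM with vehicle and 0.0622, 0.231 and 0.149 CPM with esculetin. These levels come from 2 to 18 reads per library, and its log2 fold change was -1.74 (SE 0.55, unadjusted p of 0.0103 and adjusted p of 0.265 in edgeR's test). An unadjusted p under 0.05 was reached by 7 in the higher and 2 in the lower direction, against 6.53% and 5.32% of all genes, and the median log2 fold change of the 54 was 0.05.

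Hspb8, the small heat shock protein that works in a complex with BAG3, had the smallest p of them. It was at 124, 129 and 128 CPM with vehicle and 191, 152 and 166 CPM with esculetin, without overlap. Its log2 fold change was 0.41 (SE 0.092, unadjusted p of 0.00119 and adjusted p of 0.152 in edgeR's test), under the fold threshold. Chordc1, an HSP90 cochaperone, was at 66.3, 60.7 and 64.7 CPM with vehicle and 83.4, 76.9 and 76.3 CPM with esculetin, a log2 fold change of 0.30 (SE 0.076, unadjusted p of 0.00259 in edgeR's test). Both were more even among vehicle libraries than Hspa8, and vehicle replicate 3 was not high for them.

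By role, none of the 8 J-proteins other than Dnajb1 had an unadjusted p under 0.05, and 6 of them had a log2 fold change below 0, where 11.9% of all genes had such a p-value and 48.5% were above 0. Of the 8 subunits of the TRiC chaperonin, which folds actin and tubulin, 1 had (Cct4, 0.22), and of 6 mitochondrial chaperones 1 had (Hspe1, the cochaperonin of HSP60, 0.26). Of 9 HSP70 exchange factors and cochaperones 8 had a log2 fold change above 0, with a median of 0.12, and 1 had such a p-value (Bag1, 0.24). Of HSP90 and its cochaperones 7 of 10 were above 0, and 2 had such a p-value (Chordc1 and Ptges3, the latter at 0.33). Among the regulators, Hsf1 had a log2 fold change of 0.07 (SE 0.14, unadjusted p of 0.634 in edgeR's test) and Hsf2 one of -0.26 (unadjusted p of 0.0395 in edgeR's test).

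**Figure D5:**
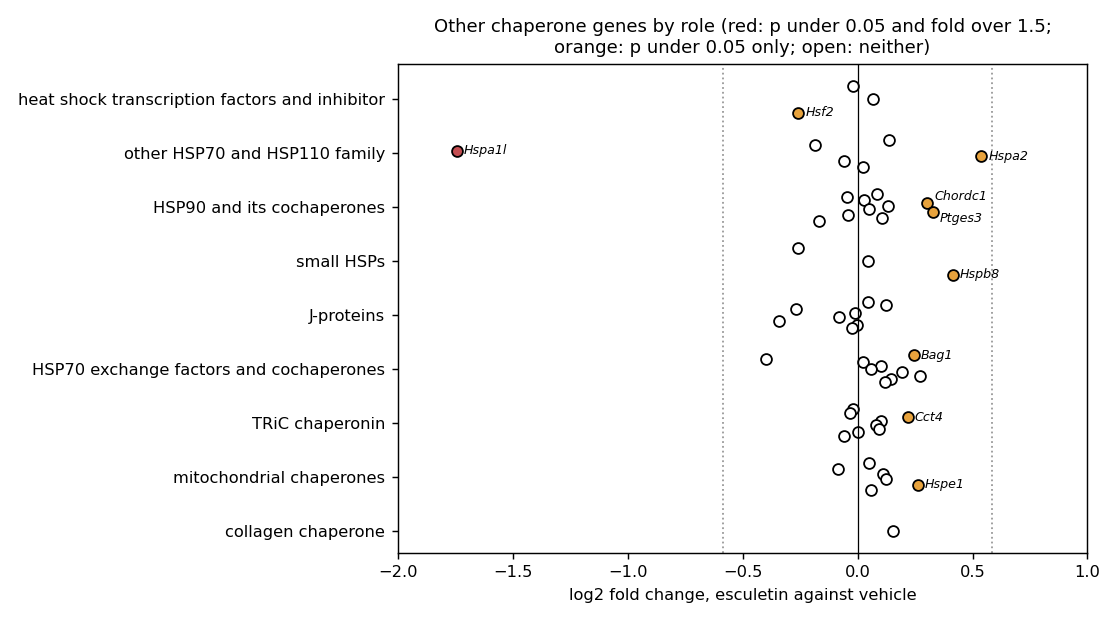
Log2 fold change, esculetin against vehicle, of the 54 other chaperone genes tested, by role, with the fold threshold of 1.5 as dotted lines and 1 point per gene. Of these, 34 lie above 0 and 20 below, with a median of 0.05, and Hspa1l at -1.74 is the 1 gene past both thresholds.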

How the data were processed

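Liver RNA was sequenced in 6 libraries (3 vehicle, 3 esculetin, each from 2 mice). Paired-end reads were mapped to GRCm39 with HISAT2 2.2.1 by the authors, who deposited raw featureCounts counts. Annotation release, strandedness and handling of multi-mapping reads are not given in the sources used here. Libraries were grouped by their annotations.

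Gene identifiers were matched to GENCODE M39 (54749 of 55357). Genes were kept with filterByExpr and compared by edgeR's quasi-likelihood test (edgeR 4.0.16, R 4.3.3) after TMM scaling, and p-values were adjusted by Benjamini-Hochberg over the 14433 genes tested. Calls required a fold change over 1.5 and an unadjusted p-value under 0.05, as in the study. Standard errors were derived from the log2 fold change and its F statistic. Promoters are RefSeq sequences of GRCm38.p6. The test was checked on simulated counts. Alternatives were DESeq2 1.42.0, limma-voom (limma 3.58.1), a filter of at least 10 counts per library or none, scaling by total counts or DESeq2 size factors, leaving out each library, a replicate block, summed paralogs and other call rules.

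The 10 genes and all gene lists were chosen with earlier results of these data known. From the lists of chaperone, metal handling, glucocorticoid-responsive, acute phase and immediate early genes, called genes were named, or up to 2 by smallest p in a direction without a call. Marker lists of cell types are given as summed levels, and 1 of them is not reported here. The 5 nearest profiles are those of tested genes with a mean of at least 1 CPM. Hsf1, Hsf2, Mtf1, Slc30a1, Mt3 and Mt4 were named for their role, and Cct4, Hspe1, Bag1, Ptges3, Dusp1 and Nr3c1 after their values were seen. Replicate numbers are those of the sample titles, different mice share a number, and deviations from the group means correlated at -0.1, -0.04 and 0.02 between same-numbered libraries, so they were not treated as pairs. P-values measure the spread between pools of 2 mice.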

Additional observations from a re-analysis of the deposited data

How the results depend on the processing

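The calls of Hspb1 and Mt1 were made by edgeR with TMM, DESeq2 size factors or total counts, by DESeq2, with at least 10 counts in every library and with the replicate block. Limma-voom called Hspa1b (0.93) and Hspb1 but not Mt1 (1.55), and without a filter Hspa1b (0.75), Hspb1 and Mt1 were called. Without a fold threshold 4 of the 9 genes passed, and with an adjusted p-value 0 did in edgeR, DESeq2 and limma-voom, where 4, 4 and 3 had an unadjusted p under 0.05, while without a filter Hspa1b, Hspa8 and Mt1 did (3 genes). The number called ranged from 1 to 3 with 1 library left out. Hspb1 was not called without vehicle replicate 1 (0.54), vehicle replicate 2 (0.50) or esculetin replicate 2 (0.47), and Hspa1b was called without vehicle replicate 3 (1.17). The direction turned for Hspa1a without vehicle replicate 2 (-0.36) or esculetin replicate 2 (-0.022), and for Hsp90aa1 (-0.078) and Dnajb1 (-0.044) without vehicle replicate 2. With 1 library left out the values of these 3 genes ran up to 0.33 (Hspa1a), 0.24 (Hsp90aa1) and 0.33 (Dnajb1). Of 119 alternative values of the genes, 108 kept direction and side of the thresholds. Among other chaperones the 1 call became 0 with at least 10 counts in every library, where Hspa1l was no longer tested, and 1 to 2 with 1 library left out, when Hspa2 was added. Over all genes, 452 calls became 776 without a filter (24638 genes tested) and 411 to 588 with 1 library left out. The 6 genes with an adjusted p under 0.05 became 193 with DESeq2, 477 without a filter, 15 with the replicate block and 2 to 45 with 1 library left out. The replicate block, which pairs libraries that share only a number, called 399 genes and changed no call among the heat shock genes and metallothioneins. Mt1 had a log2 fold change of 1.56 under it. Causes were not tested. Values of Hspa1a and Hspa1l rest on few reads. Mt2, with 8 reads in all, was tested only without a filter, where it was not called.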

Other observations

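Further marker lists of cell types gave these summed levels. Endothelial markers (10 of 10 detected) were at 290 to 340 CPM with vehicle and 302 to 340 CPM with esculetin. Lymphocyte markers (9 of 9) were at 18.3 to 20.2 CPM with vehicle and 14.8 to 17.8 CPM with esculetin. Ptprc made up most of the lymphocyte sum, at 12.7 to 14.1 CPM with vehicle and 10.4 to 11.5 CPM with esculetin. Of the 8 lymphocyte markers tested, 6 had a log2 fold change below 0 and 2 above 0 (Cd79a and Ms4a1). Cd79a was called higher, with overlapping groups, and none was called lower. Adipocyte markers (4 of 5, Lep at 0) were at 0 to 0.613 CPM with vehicle and 0.894 to 1.22 CPM with esculetin. Most of this sum was Cfd, which had 0 to 36 reads per library. Cfd was the only 1 of them tested and was called higher (1.72, unadjusted p of 0.0397 in edgeR's test). Adipoq, Plin1 and Adig had 6, 5 and 1 reads over all 6 libraries. Pancreas markers (2 of 6, Cpa1, Ctrb1, Prss2 and Amy2a5 at 0) were at 18.7 to 25.7 and 16.2 to 26.0 CPM, nearly all of it from Cela1.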
